A study of Mus musculus with 6 samples.

Results

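The hedgehog pathway was followed through 9 genes in fetal mouse lungs with and without Hopx, a small homeodomain protein without DNA binding of its own that marks type I alveolar cells. The genes were the ligands Shh, Ihh and Dhh, the membrane proteins Ptch1, Smo and Hhip, and the transcription factors Gli1, Gli2 and Gli3. Every probe set that the platform annotation assigns to exactly 1 of these genes was taken, which gave 21 of the 45037 probe sets tested, and all 9 genes had at least 1. The set was named for the pathway, and its members were chosen with earlier results of these data known. The samples were microdissected whole lungs at E16.5, late in the branching of the airways and before birth, 3 of genotype Hopx -/- (Hopx-null) and 3 of genotype Hopx +/+ (wild-type), all on a mixed strain background and each on its own single-channel array. The labels call the 3 lungs of a genotype biological replicates. They name no litter and no sex, and they do not describe the null allele. Values are log2 expression values, on which a difference of 1 is a doubling.

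In the developing lung, sonic hedgehog is made by the epithelium of the growing buds and acts on the mesenchyme around them. Ligand binding to Ptch1 relieves its block on Smo, and Smo then acts through the primary cilium to turn the Gli proteins from repressors into activators. Ptch1, Hhip and Gli1 are themselves direct targets, so their transcripts are commonly read as a measure of pathway activity, and Ptch1 and Hhip hold the signal back by binding ligand. The comparison asks whether these transcripts differ when Hopx is missing.

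The targeted gene matched the labels. At each Hopx probe set all 3 Hopx-null lungs were lower, with mean log2 values of 4.71 ± 0.21 (SD, n = 3) against 10.65 ± 0.28 (SD, n = 3) at 1 of them and 10.49 ± 0.15 (SD, n = 3) against 12.40 ± 0.13 (SD, n = 3) at the other. Array-to-array correlations lay between 0.989 and 0.995. Y-linked signal was present in wild-type replicates 2 and 3 and near background in the other 4 lungs (mean log2 of 3 Y-linked genes 9.24 and 9.12, against 2.47 to 2.57). Wild-type replicates 2 and 3 also had the highest cartilage marker means, 6.97 and 7.17, against 5.15 to 5.93 in the other lungs.

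None of the 21 hedgehog probe sets passed limma's test (Benjamini-Hochberg adjusted p over all probe sets under 0.05), either with eBayes as used here or with its trend and robust options. Over the whole array 2 probe sets passed, both of Hopx, which is 0.00444% of those tested. At an unadjusted p under 0.05 there were 2 hedgehog probe sets, Gli1 with higher and Dhh with lower values in Hopx-null lungs, where 4.77% of all probe sets reach that level. The values of the genotypes did not overlap at 1 of the 21, a Dhh probe set that was lower in Hopx-null lungs, against 10.1% of all probe sets, and 4.54% in that direction. With 1 probe set per gene (the one with the highest mean), 7 of the 9 genes had a difference above 0, and so did 52.2% of all genes. The median difference of the 9 genes was 0.115 on the log2 scale, and 0.01 over all genes. These are bulk samples of whole lung, so fewer cells of a type and less RNA per cell cannot be told apart in any of these values.

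**Figure D1:**
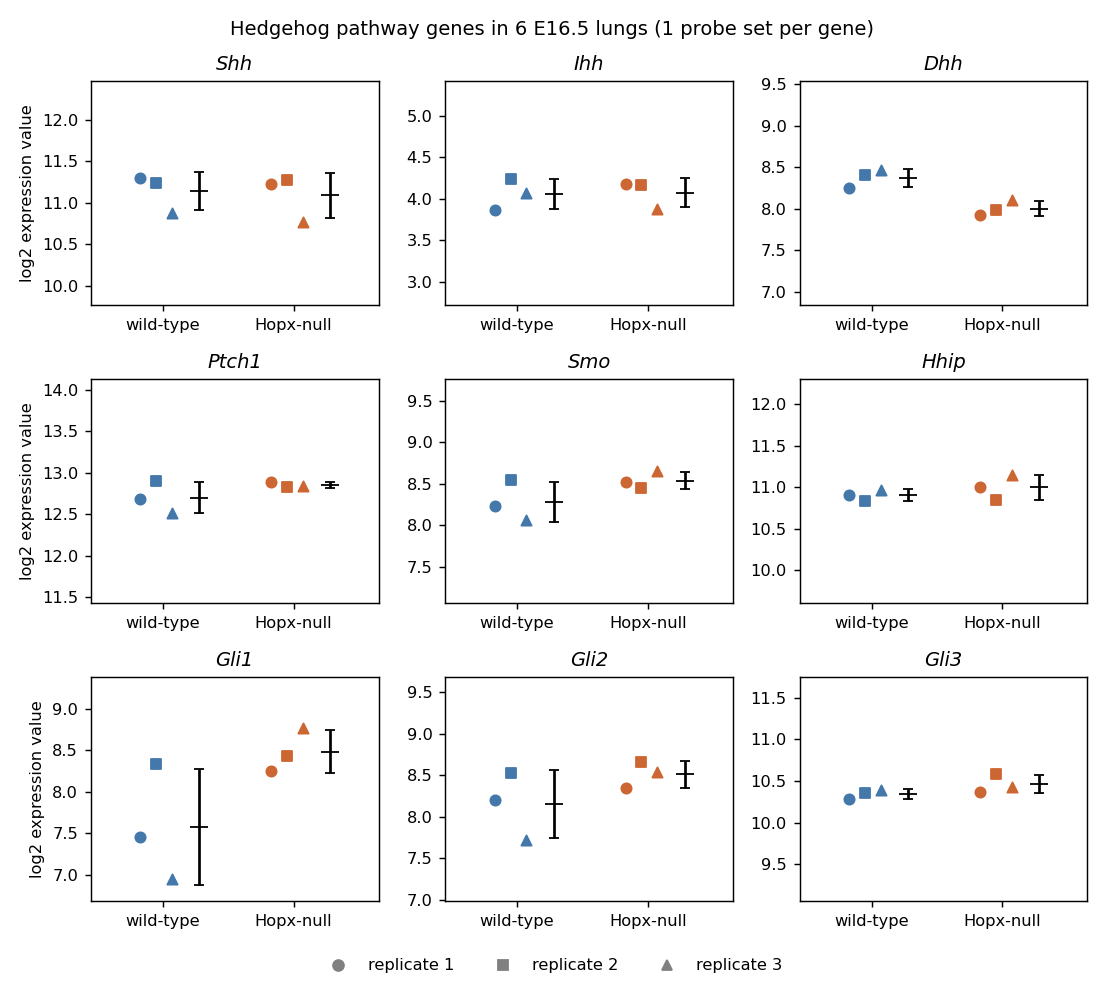
Log2 expression value (vertical axis, the same span in every panel) of each hedgehog gene at its probe set with the highest mean, in wild-type (blue) and Hopx-null (orange) lungs. Marker shape gives the replicate number, and the bar beside each group is the mean with its SD (n = 3). Dhh is the gene whose groups do not overlap, and Gli1 spreads from 6.95 to 8.33 among wild-type lungs.

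Shh, the ligand of the lung epithelium, did not separate the genotypes. At its brighter probe set (1436869_at) the log2 values were 11.22, 11.27 and 10.77 in the Hopx-null lungs, here and below in the order of replicates 1 to 3, and 11.30, 11.24 and 10.88 in the wild-type lungs. The lowest value of each genotype was that of its replicate 3, and the groups overlapped throughout. The difference, Hopx-null minus wild-type, was -0.05 (SE 0.17, 95% interval -0.47 to 0.37, limma), so true differences inside that interval were not excluded. It was 0.11 once Hopx-null replicate 3 was dropped, and dropping wild-type replicate 3 in its place gave -0.18. The second Shh probe set (1427571_at) was dim, at 4.98 to 5.41 in all lungs, and differed by -0.12 (SE 0.13). Markers of the epithelium that makes Shh moved little as a set. Over 9 measured genes of the distal lung epithelium the median difference was -0.06, with 4 above 0 and 5 below, from -0.28 to 0.10. The per-lung means were 10.57 to 10.76 in Hopx-null and 10.68 to 10.77 in wild-type lungs. Nkx2-1 was the 1 gene of the 9 whose groups did not overlap, as in 10.5% of all genes. It read 7.62, 7.38 and 7.71 in Hopx-null and 7.77, 7.81 and 7.82 in wild-type lungs (difference -0.23, SE 0.11). Hopx-null replicate 3, lowest for Shh, was also the lung with the lowest epithelial mean, 10.57. Wild-type replicate 3, next lowest for Shh at 10.88, had an epithelial mean of 10.74, near the top of the range. The part of epithelial content in the Shh values was not tested.

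Ihh, the ligand of cartilage and gut, had no usable signal. Its only probe set (1450704_at) read 4.18, 4.17 and 3.88 in Hopx-null and 3.87, 4.24 and 4.07 in wild-type lungs. Each of these values was below the lower quartile of its array (4.24 to 4.29 over the arrays), where signal and background are hard to part. The difference was 0.02 (SE 0.14, 95% interval -0.30 to 0.34). The cartilage markers listed beside it had differences below 0 in 12 of 13 genes and a median of -0.65. Their mean was high in wild-type replicates 2 and 3 only, at 6.97 and 7.17. In wild-type replicate 1 it was 5.17, within the 5.15 to 5.93 of the Hopx-null lungs. No relation was read from Ihh values this close to background. With the marker mean over the 6 lungs they gave Pearson r = 0.32 (exact permutation p = 0.5) and Spearman rho = 0.20 (exact permutation p = 0.714). Pearson r was -0.24 once the 2 lungs farthest from the Ihh median were dropped.

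Dhh, known best from Schwann cells and the testis, was the member with the clearest separation. Its brighter probe set (1434959_at) read 7.92, 7.98 and 8.10 in Hopx-null and 8.25, 8.40 and 8.46 in wild-type lungs. All 3 Hopx-null values lay below all 3 wild-type values, with the nearest pair 8.10 and 8.25. The difference was -0.37 (SE 0.10, 95% interval -0.60 to -0.13), 1.29-fold, and it did not pass over all probe sets (limma, unadjusted p = 0.00792, Benjamini-Hochberg adjusted p = 0.878; adjusted p 0.587 to 1 over the alternatives). It stayed between -0.43 and -0.32 whichever lung was left out. With Y-linked expression as a covariate it was -0.25 (SE 0.14), resting mainly on wild-type replicate 1 against the Hopx-null lungs. Wild-type replicates 2 and 3, which carry Y-linked signal, had the highest Dhh values, 8.40 and 8.46. The part of sex in the Dhh difference was not tested. At the second probe set (1422127_at), close to the lower quartile, Hopx-null lungs read 4.41, 4.08 and 4.01 and wild-type lungs 4.45, 4.43 and 4.37, and the groups overlapped. That difference was -0.25 (SE 0.12).

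Schwann and neural markers varied among lungs of both genotypes. Of 11 listed genes 8 were measured, with 4 differences above 0, 4 below and a median of -0.09. Their mean was 6.59, 6.25 and 6.75 in Hopx-null and 6.24, 6.96 and 6.95 in wild-type lungs. Sox10, the transcription factor that defines the Schwann lineage, read 6.34, 5.03 and 6.28 in Hopx-null and 5.03, 7.37 and 7.20 in wild-type lungs. The marker mean was about equal in wild-type replicate 1 and Hopx-null replicate 2, where Dhh read 8.25 and 7.98. Over the 6 lungs Dhh and the marker mean gave Pearson r = 0.59 (exact permutation p = 0.229, adjusted 0.611 over the 8 relations examined) and Spearman rho = 0.54 (exact permutation p = 0.297). Dropping the 2 lungs farthest from the Dhh median left r = 0.57, and deviations from the genotype means gave r = 0.79. The part of these cells in the Dhh difference was not tested.

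**Figure D2:**
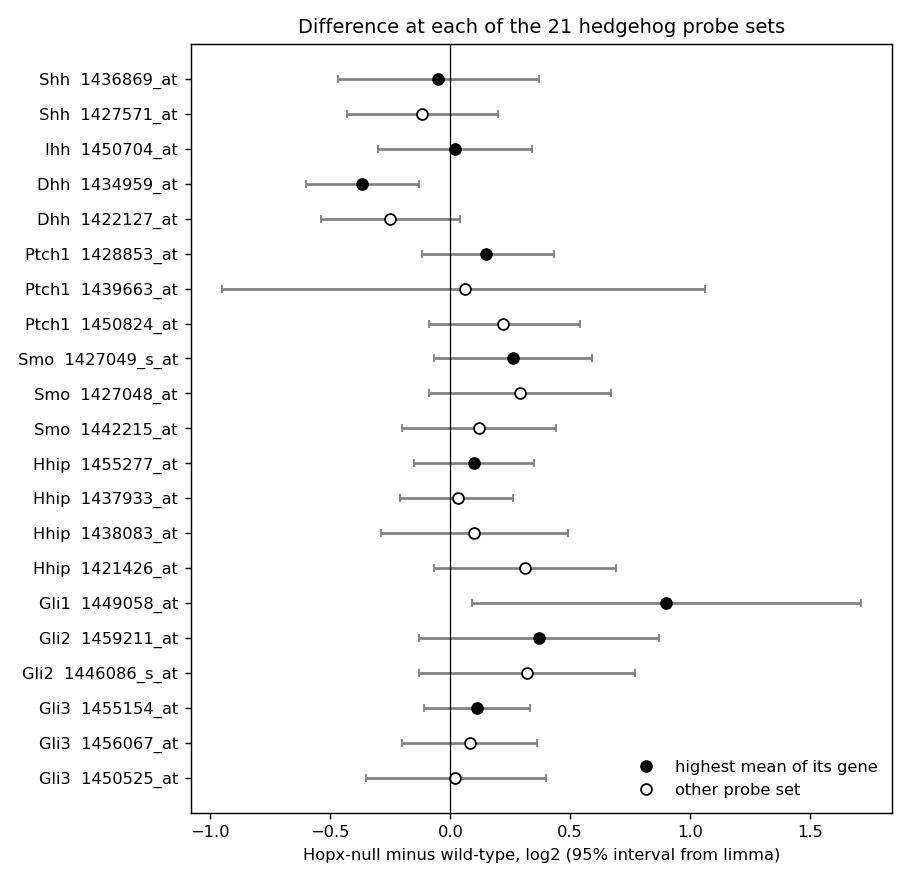
Hopx-null minus wild-type difference on the log2 scale (horizontal axis) at each hedgehog probe set, with its 95% interval from limma; filled points are the probe set with the highest mean of its gene and open points the others. The intervals of Gli1 (0.09 to 1.71) and of 1 Dhh probe set (-0.60 to -0.13) leave out 0, and neither passed after adjustment.

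Ptch1, the receptor and a target, was bright and steady in Hopx-null lungs. At 1428853_at the values were 12.89, 12.83 and 12.84 in Hopx-null and 12.68, 12.90 and 12.52 in wild-type lungs. Wild-type replicate 2 was the highest of all, so the groups overlapped, while wild-type replicates 1 and 3 were the lowest. The difference was 0.15 (SE 0.12, 95% interval -0.12 to 0.43). It was 0.06 once wild-type replicate 3 was dropped, and dropping wild-type replicate 2 gave 0.26. At 1439663_at the lungs spread much further, from 5.07 in wild-type replicate 3 to 6.79 in wild-type replicate 2, and the difference of 0.06 (SE 0.42) became -0.42 once wild-type replicate 3 was dropped, whereas dropping wild-type replicate 2 gave 0.44. The third probe set, 1450824_at, lay between 4.79 and 5.31 and differed by 0.22 (SE 0.13). The 2 brighter probe sets ran together over the lungs (r = 0.81, 6 lungs), and the third did not follow the second (r = -0.03).

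Smo, the transducer that Ptch1 blocks, had slightly higher values in Hopx-null lungs with overlap. At 1427049_s_at they were 8.52, 8.45 and 8.65 in Hopx-null and 8.23, 8.55 and 8.07 in wild-type lungs. Wild-type replicate 2 again lay among the Hopx-null values and wild-type replicate 3 was lowest. The difference was 0.26 (SE 0.14, 95% interval -0.07 to 0.59), and 0.15 without wild-type replicate 3. The second probe set (1427048_at) differed by 0.29 (SE 0.16) and had the same lowest lung. The third (1442215_at) read below the lower quartile in every lung and differed by 0.12 (SE 0.14).

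Hhip, the decoy receptor at the cell surface and a target, had overlapping groups at all 4 of its probe sets. At 1455277_at it read 11.00, 10.85 and 11.15 in Hopx-null and 10.91, 10.83 and 10.97 in wild-type lungs. Replicate 2 was lowest and replicate 3 highest in each genotype. The difference was 0.10 (SE 0.10, 95% interval -0.15 to 0.35). It was 0.02 once Hopx-null replicate 3 was dropped, and dropping Hopx-null replicate 2 gave 0.17. The other 3 probe sets differed by 0.03 (SE 0.10), 0.10 (SE 0.16) and 0.31 (SE 0.16), the last at 1421426_at, where Hopx-null lungs read 9.02, 8.81 and 9.31 and wild-type lungs 8.53, 8.77 and 8.92. Hhip thus did not share the low value that Ptch1 and Smo had in wild-type replicate 3.

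Gli1, the factor that is itself switched on by the pathway, had the largest difference of the 9 genes and the largest SD over the 6 lungs, 0.68. Within the genotypes the Ptch1 probe set 1439663_at spread further. Its single probe set (1449058_at) read 8.25, 8.43 and 8.76 in Hopx-null and 7.46, 8.33 and 6.95 in wild-type lungs. Wild-type replicate 2 lay above Hopx-null replicate 1, so the groups overlapped, and wild-type replicates 1 and 3 lay well below all the others. The means were 8.48 ± 0.26 (SD, n = 3) and 7.58 ± 0.70 (SD, n = 3). Only 1.79% of all probe sets had a larger SD among wild-type lungs. The difference was 0.90 (SE 0.34, 95% interval 0.09 to 1.71), 1.86-fold, and did not pass (limma, unadjusted p = 0.0347, Benjamini-Hochberg adjusted p = 0.878; adjusted p 0.536 to 1 over the alternatives). Leaving out 1 lung moved it to 0.58 if wild-type replicate 3 was dropped, and at the other end to 1.27 if that lung was wild-type replicate 2. Of the 2 low wild-type lungs, replicate 3 carries Y-linked signal and replicate 1 does not. With Y-linked expression as a covariate the difference was 1.04 (SE 0.51), resting mainly on wild-type replicate 1 against the Hopx-null lungs. The part of sex in the Gli1 difference was not tested.

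Gli2, the main activator, had its lowest values in the same 2 wild-type lungs, over a smaller range. At 1459211_at it read 8.34, 8.66 and 8.54 in Hopx-null and 8.20, 8.53 and 7.72 in wild-type lungs. Wild-type replicate 3 was lowest, wild-type replicate 1 next, and wild-type replicate 2 lay among the Hopx-null values. The difference was 0.37 (SE 0.21, 95% interval -0.13 to 0.87) and 0.15 without wild-type replicate 3. The second probe set (1446086_s_at) gave 0.32 (SE 0.19). Both are annotated to the same source sequence and ran together over the lungs (r = 0.98, 6 lungs), so they are not independent readings.

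Gli proteins bind the sequence GACCACCCA, and the promoters of the members were read for it because Gli1 and Gli2 were low in the same lungs. RefSeq promoter windows (assembly GRCm38.p6, 250 bases before to 50 after the start) were at hand for 7 of the 9 genes, Shh and Gli1 being the exceptions. The full motif, searched on both strands, was in 0 of the 7 windows and in 0.253% of 32851 windows overall. Each overlapping stretch of 7 bases of the motif was searched as well. The first 7 bases are in 2.8% of all windows, the middle 7 in 4.61% and the last 7 in 9.3%. Among the members only the middle stretch, ACCACCC, occurred, once, on the opposite strand of the Gli2 window. That window is shown because it is the single match, at chr1:119053570-119053869 on the minus strand, 5′ to 3′ along the gene, with the match (bases 46 to 52) in capitals.
Gli2: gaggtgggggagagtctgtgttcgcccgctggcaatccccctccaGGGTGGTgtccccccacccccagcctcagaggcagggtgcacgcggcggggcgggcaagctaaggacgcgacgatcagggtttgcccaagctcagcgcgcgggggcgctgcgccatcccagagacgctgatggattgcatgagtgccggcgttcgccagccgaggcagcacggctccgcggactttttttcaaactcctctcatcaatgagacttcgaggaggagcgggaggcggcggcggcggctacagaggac
The match describes letters only, since no binding was measured here.

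Gli3, which acts mostly as the repressor, was close to level. At 1455154_at it read 10.37, 10.58 and 10.43 in Hopx-null and 10.28, 10.36 and 10.39 in wild-type lungs. Wild-type replicate 3 was the highest of its group here. The difference was 0.11 (SE 0.09, 95% interval -0.11 to 0.33). The other probe sets differed by 0.08 (SE 0.12) at 1456067_at and 0.02 (SE 0.16) at 1450525_at.

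**Figure D3:**
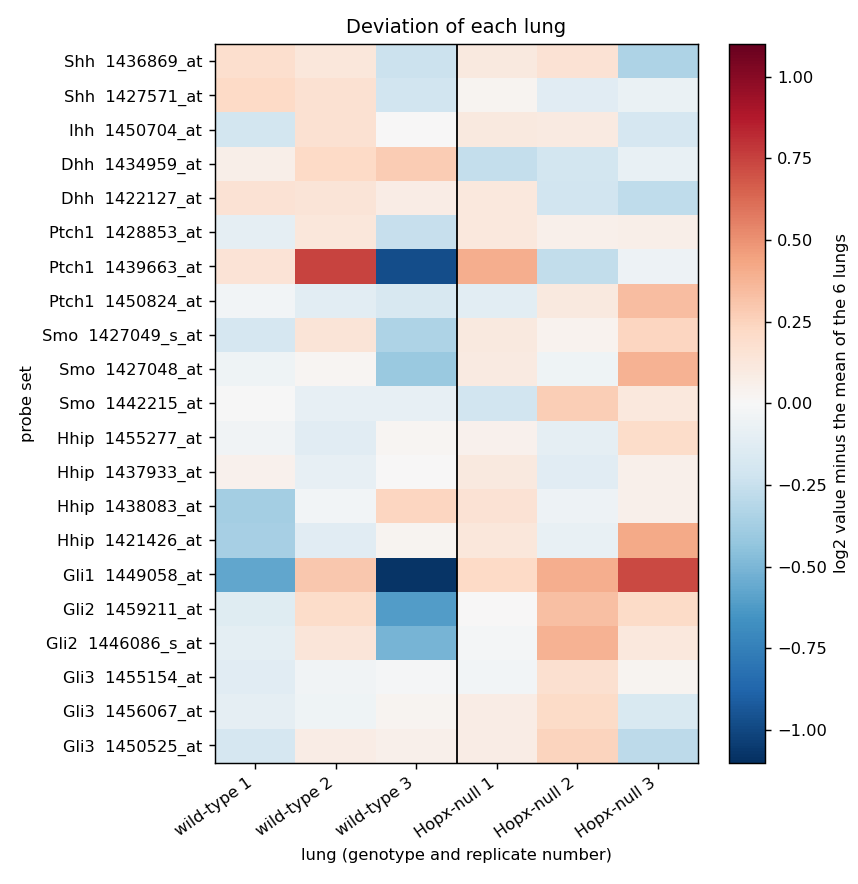
Log2 value of each lung minus the mean of the 6 lungs (colour) at each hedgehog probe set (rows), with wild-type lungs left of the line and Hopx-null lungs right of it. Wild-type replicate 3 is the lowest lung at Gli1, both Gli2 probe sets, 2 Smo probe sets and all 3 Ptch1 probe sets, and at no Hhip or Gli3 probe set.

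Wild-type replicate 3 was the lowest of the 6 lungs at 9 of the 21 hedgehog probe sets, and at 22.2% of all probe sets. By gene, it was lowest for Ptch1, Smo, Gli1 and Gli2. Wild-type replicate 2 was lowest at 1 of the 21, and at 15.4% of all probe sets. Hopx-null replicate 3 was lowest at 4 of the 21, and at 21.5% of all probe sets. Both replicate 3 lungs were also often the highest, at 19.7% of all probe sets for wild-type and 21.2% for Hopx-null. Over the whole array the spread was about the same in both genotypes, with a median SD of 0.14 in Hopx-null and 0.139 in wild-type lungs. Of the cell type lists, the lung mesenchyme markers had their lowest mean in wild-type replicate 3, 10.47 against 10.57 to 10.79 in the other lungs, over 10 measured genes of which 6 had a difference above 0 (median 0.04). Meox2 and Wnt2, the latter also on the target list, were at their lowest in that lung, at 10.23 and 6.92, while Pdgfra was at its highest, 11.98. Over the other 8 genes the mean of wild-type replicate 3 was 10.94, within the 10.88 to 11.05 of the other lungs. Meox2 and Wnt2 were left out after their low values there were seen, so this choice itself moved the lung up among the others. The smooth muscle mean was lowest in wild-type replicate 1, 9.64, with 9.87 in wild-type replicate 3. Blood endothelial markers lay between 10.65 and 10.81 in all lungs, and foregut and liver markers between 5.13 and 5.28. Heart muscle markers had means of 9.85, 10.28 and 10.57 in wild-type and 10.27, 10.27 and 10.64 in Hopx-null lungs. Single genes of that list went opposite ways in wild-type replicate 3. Nppa was highest there, at 9.47 against 5.71 to 6.78 elsewhere, and Myh7 lowest, at 9.46 against 10.33 to 11.02. The part of these cell types in the hedgehog values was not tested.

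Among Shh and the target readouts 6 relations were examined, beside those of Ihh and Dhh to cell markers given above. Each gene was taken at its probe set with the highest mean. For Hhip this was 1455277_at, with an SD of 0.12 over the 6 lungs. It ran with the other Hhip probe sets at r = 0.71, 0.40 and 0.83 (6 lungs), and those were not examined with Shh. Gli1 and Ptch1 were the closest pair by Pearson's measure, r = 0.91 (exact permutation p = 0.0292, adjusted 0.183 over 8 relations), with Spearman rho = 0.54 (exact permutation p = 0.297, adjusted 0.792). Without wild-type replicates 1 and 3 it was r = -0.69 over the 4 lungs left, so the relation rests on those lungs. Shh and Hhip ran opposite ways, r = -0.79 (exact permutation p = 0.0458, adjusted 0.183) and rho = -0.71 (exact permutation p = 0.136, adjusted 0.792), and r was -0.28 without replicate 3 of each genotype. For Shh and Gli1 no relation was detected (r = 0.02, exact permutation p = 0.971; rho = -0.20, exact permutation p = 0.714), and r = -0.72 over the 4 lungs left without replicate 3 of each genotype. Nor was one detected for Shh and Ptch1 (r = 0.34, exact permutation p = 0.61; rho = -0.09, exact permutation p = 0.919), where r was -0.95 over the same 4 lungs. Gli1 with Hhip gave r = 0.22 (exact permutation p = 0.682; rho = 0.09, exact permutation p = 0.919) and Ptch1 with Hhip gave r = -0.02 (exact permutation p = 0.95; rho = -0.14, exact permutation p = 0.803). Without wild-type replicates 1 and 3 these were r = 0.69 and r = -0.28. No relation passed after adjustment over the 8, where the Benjamini-Hochberg values ran from 0.183 to 0.971 for Pearson's r and from 0.792 to 0.919 for Spearman's rho. Because the members of each pair were measured on the same arrays, array effects are shared between them.

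The other genes of the pathway were taken from a list of 48, of which 46 had a probe set of their own. None passed limma with Benjamini-Hochberg adjustment over all probe sets, where 0.0055% of all genes did. At an unadjusted p under 0.05 there were 3, all with higher values in Hopx-null lungs, against 4.54% of all genes. Differences were above 0 in 29 genes and below 0 in 17, with a median of 0.03. The groups did not overlap in 4 of the 46, and in 10.5% of all genes.

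Of 5 genes that make or release the ligand, 3 had differences above 0 and 2 below, and none passed. Hhat, which attaches the palmitate that hedgehog needs, differed by 0.19 (SE 0.12). Disp1, which releases the lipid-bearing ligand from the cell, differed by -0.02 (SE 0.08, 95% interval -0.21 to 0.18). Scube2, which carries it away, differed by 0.23 (SE 0.14). Its relative Scube1, picked after its values were seen, read 5.07, 5.19 and 4.95 in Hopx-null and 5.31, 5.19 and 5.38 in wild-type lungs, with the groups only just apart, and differed by -0.23 (SE 0.10). Among the co-receptors that present ligand to Ptch1, Cdon differed by -0.06 (SE 0.16), Boc by 0.03 (SE 0.09) and Gas1 by -0.20 (SE 0.10). For Gas1 the values were 10.20, 10.09 and 10.32 in Hopx-null and 10.41, 10.30 and 10.52 in wild-type lungs, so they met at 10.30 and 10.32.

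Genes acting between Smo and Gli, 15 in all, had 8 differences above 0, 7 below and a median of 0.02. Sufu, which holds Gli proteins in check, differed by 0.18 (SE 0.11), the ciliary kinesin Kif7 by 0.16 (SE 0.12) and the ciliary receptor Gpr161, which keeps the pathway off, by 0.12 (SE 0.10). Evc and Iqce, picked after their values were seen, belong to the complex at the base of the cilium that acts with Smo. They were the 2 genes of this group with an unadjusted p under 0.05 (limma), a level that 4.54% of all genes reach. Evc read 7.42, 7.24 and 7.59 in Hopx-null and 6.86, 7.33 and 6.72 in wild-type lungs, with wild-type replicate 2 again among the Hopx-null values (difference 0.45, SE 0.18). Iqce read 8.56, 8.52 and 8.67 against 8.22, 8.36 and 8.09, without overlap (difference 0.36, SE 0.10). Listed in the same group, Evc2 differed by 0.29 (SE 0.14) with overlap, and Efcab7 went the other way, -0.14 (SE 0.19). Of 6 measured genes for transport in the cilium, 5 had differences above 0 and the median was 0.07.

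**Figure D4:**
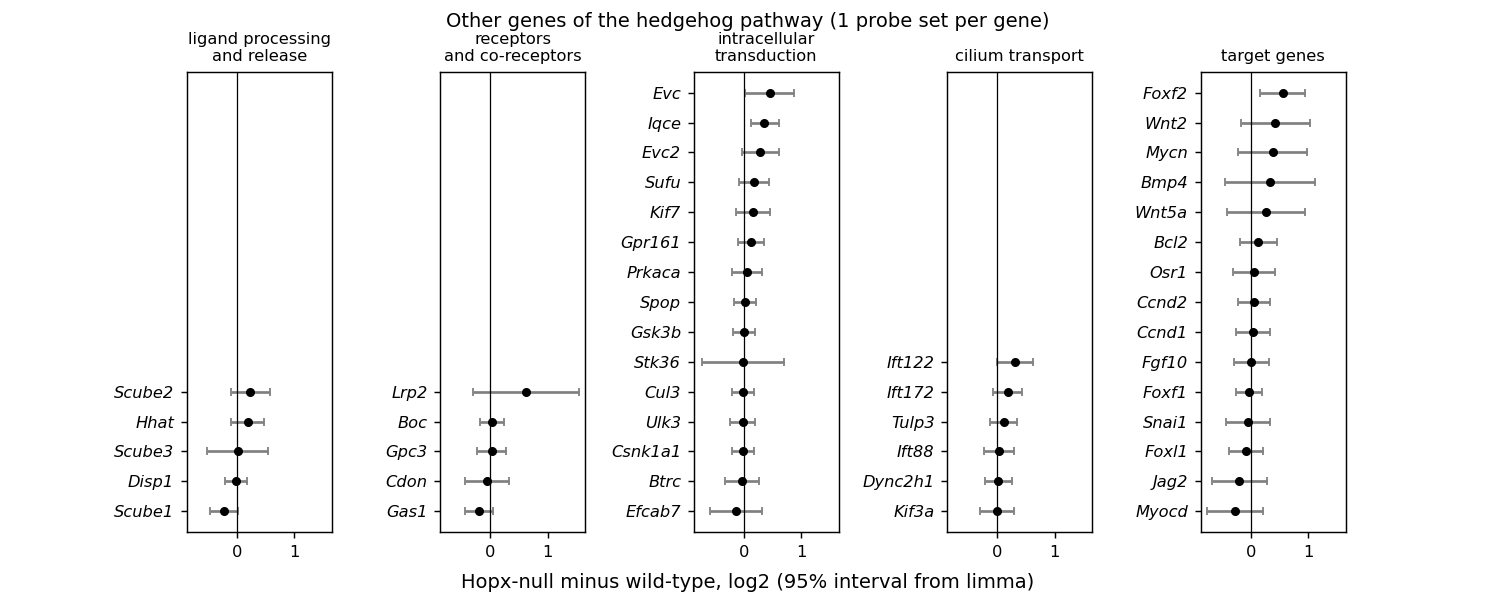
Hopx-null minus wild-type difference on the log2 scale (horizontal axes, shared) for 46 other genes of the pathway in 5 roles, 1 probe set per gene, with 95% intervals from limma. Most intervals include 0; those of Foxf2, Iqce and Evc lie above it, and no gene passed after adjustment.

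Target genes, 15 in all, had 10 differences above 0, 5 below and a median of 0.06. Foxf1, the mesenchymal forkhead factor downstream of hedgehog in the lung, read 12.32, 12.36 and 12.14 in Hopx-null and 12.26, 12.27 and 12.38 in wild-type lungs, and differed by -0.03 (SE 0.10, 95% interval -0.26 to 0.20). The cell cycle gene Ccnd1 differed by 0.04 (SE 0.12), the growth factor Fgf10, which hedgehog restrains, by 0.01 (SE 0.13), and Foxl1, dim throughout, by -0.08 (SE 0.13). Bmp4 differed by 0.34 (SE 0.33) and Wnt2 by 0.43 (SE 0.25), and both were lowest in wild-type replicate 3, at 9.05 and 6.92. Myocd, the smooth muscle coactivator, differed by -0.28 (SE 0.20) and was highest in that same lung, at 9.39 against 8.48 to 8.82 elsewhere. Foxf2, the relative of Foxf1 and picked after its values were seen, read 9.01, 9.13 and 8.82 in Hopx-null and 8.61, 8.58 and 8.11 in wild-type lungs. Its groups did not overlap, and the difference was 0.56 (SE 0.16, limma, unadjusted p = 0.0113, Benjamini-Hochberg adjusted p = 0.878).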

How the data were processed

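RNA of 6 mouse lungs at E16.5 was measured on single-channel Affymetrix arrays after Trizol extraction, poly(T) priming and biotin labelling, per the labels' protocols. The submitters' processing notes list RMA and Partek 6.6 without saying what each did. The deposited values are taken as log2 expression values, with the base read from their range and from RMA. The arrays' distributions were close but not equal, with medians of 6.67 to 6.72 and lower quartiles of 4.24 to 4.29. Background settings: not given in the sources used here.

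Of 45101 probe sets 64 controls were left out. The annotation named 1 gene for 34945 probe sets, several for 932 and none for 9160. Groups were compared with limma 3.58.1 (R 4.3.3, lmFit and eBayes) with Benjamini-Hochberg adjustment over 45037 probe sets. The exact permutation test of 3 against 3 lungs cannot go below p = 0.1. Relations between genes over the 6 lungs used exact two-sided permutation tests, and standard errors and 95% intervals come from the limma fit. Genes were listed by role, and lists and members were chosen with earlier results of these data known. Named were every member, other pathway genes fixed by role, and the probe sets most like Shh, Gli1 and Hhip. The motif search, the count of the lowest lung and the mesenchyme mean without Meox2 and Wnt2 were added after values were seen. Of 4 listed Y-linked genes 3 had a probe set of their own and formed the covariate. The fit was tested on 10 simulated data sets with 200 planted changes each and SDs shuffled among probe sets. It recovered 6% of planted log2 changes of 0.5 and 54.8% of those of 1. These rates apply to data sets with 200 planted changes, which included log2 changes of 2 and 3. On the measured arrays 2 probe sets passed, so the Benjamini-Hochberg cutoff was stricter there. Recovery with so few changes was not tested. The number of arrays limits the precision.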

Additional observations from a re-analysis of the deposited data

How the results depend on the processing

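The count of called hedgehog probe sets was 0 in every limma alternative run (renormalized or median-centred values, 2 filters on dim probe sets, trend and robust options, array weights, replicate block, Y-linked covariate, an adjusted p under 0.1, each lung left out), except at an unadjusted p under 0.05, where it was 2, with 3 for the wider list and 2149 over the array. Over the array, 1 probe set passed with the replicate block and 1 with the Y-linked covariate, and 1 to 23 with a lung left out (12 when it was Hopx-null replicate 1, and 23 when it was wild-type replicate 1); none of these was a hedgehog probe set. The replicate number was not treated as a pairing: same-numbered lungs deviated together with correlations of -0.10, -0.12 and 0.18, and the replicate block, with 1 probe set called, changed no hedgehog call. The median of the 9 genes lay between 0.097 (median-centred arrays) and 0.176 (Y-linked covariate).

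Of 285 values of single probe sets under alternatives, 267 kept their direction and 18 did not. At Ptch1 1439663_at the difference was -0.11 with array weights and -0.11 with the Y-linked covariate, and -0.42 to 0.44 with a lung left out. Hhip 1437933_at gave -0.01 with array weights, -0.03 with the Y-linked covariate and -0.02 to 0.09 with a lung left out. Leaving out a lung gave -0.18 to 0.11 for Shh 1436869_at, -0.08 to 0.12 for Ihh, -0.06 to 0.25 for Hhip 1438083_at, -0.01 to 0.19 for Gli3 1456067_at and -0.09 to 0.17 for Gli3 1450525_at. The causes were not tested.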

Other observations

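The probe sets most like 3 of the members over the 6 lungs, among those at least as variable and brighter than the median, were as follows. For Shh they were Rmdn1 (Pearson r = 0.991) and 2 probe sets of the adhesion molecule Vcam1 (r = 0.991 and 0.976), out of 4351 compared, of which 33 exceeded 0.9. For Gli1 they were St8sia2, a sialyltransferase (r = 0.958), Pigo, of the GPI anchor pathway (r = 0.93), and Psca (r = 0.909), out of 209 compared, of which 5 exceeded 0.9. For Hhip they were Acad8 (r = 0.988), Dlat (r = 0.971) and Dus1l (r = 0.97), out of 12214 compared, of which 69 exceeded 0.9. No other hedgehog probe set was variable enough to enter the search for Gli1. With 6 lungs such values are a description of shared order and size, and no test was made.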
